A study of Mus musculus with 14 samples.

Results

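The kidney transcriptome 4 h after an intravenous injection of Dps was set against that of kidneys from mice given vehicle. The libraries were chosen by title, 3 named Dps_4h and 3 named Control, and form 6 of the 14 RNA-seq libraries of the series. All 24421 genes of the count table entered the comparison. The series title speaks of protein nanocages that reach the proximal tubules of the kidney through the glomerular filter. All mice were C57BL/6J males, and the labels name no genetic alteration. Dps was given at 18 mg/kg, the composition of the vehicle is not described, and no time after injection is given for the vehicle mice. The remaining groups received Dps at the same dose 24 h before (3 libraries) or MnDps at 18 mg/kg 4 h (3 libraries) or 24 h (2 libraries) before. The labels give neither the age of the mice nor a statement that each library came from its own animal, so a p-value here reflects only how these libraries vary, part of which may be technical.

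Interferons are secreted proteins that bind receptors on the cell surface and, through JAK kinases and STAT transcription factors, switch on many genes that block viruses and other intracellular pathogens. Type I and type III interferons act through a complex that holds Stat2 and Irf9 and binds the interferon-stimulated response element, and the signal of interferon gamma ends at the gamma-activated site. NF-kB is the other main transcription factor of acute inflammation and drives chemokines, cytokines and adhesion molecules. In the kidney, the proximal tubule takes up filtered protein with the receptors megalin (Lrp2) and cubilin (Cubn), and resident macrophages, dendritic cells and the endothelium of the peritubular capillaries lie next to it.

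Total counts ran from 17589774 to 42074942 over the 6 libraries, and Dps replicates 1 and 2 and vehicle replicate 3 each exceeded 30000000. Between 16667 and 17459 genes had at least 1 count. Levels below are CPM, counts divided by the scaled total of their library, listed as replicates 1, 2 and 3, and fold changes are log2 values ± SE for Dps against vehicle, with n = 3 libraries in each group. Defining markers of the kidney were high in all 6 libraries: Kap, an androgen-regulated protein of the proximal tubule, gave 38630.0, 39047 and 36200.0 CPM in the vehicle libraries and 34797, 37296 and 31996 CPM in the Dps libraries, and the loop of Henle protein Umod gave 2618, 2903 and 3547 and 2424, 2548 and 2849 CPM. Of the adrenal marker list, the steroidogenic regulator Star was the only member with enough counts to be tested. The tissue was whole kidney, so fewer cells of a type and less RNA per cell cannot be told apart in any value below.

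Of 14854 genes with enough counts to be tested, 1237 (8.33%) were higher and 931 (6.27%) were lower in the Dps libraries by the quasi-likelihood test of edgeR after Benjamini-Hochberg adjustment (called at an adjusted p under 0.05). Among the genes called higher, 531 rose by over 2-fold, 265 by over 4-fold and 62 by over 16-fold, whereas 139 genes fell by over 2-fold, 16 by over 4-fold and 2 by over 16-fold. The median log2 fold change was 0.84 for the genes called higher, −0.44 for those called lower and −0.02 for all tested genes. All Dps libraries lay above all vehicle libraries for 2382 tested genes and below them for 2771, called or not. Of the genes called higher 1213 were without overlap in that direction, and of those called lower 899. A lack of overlap, given for some genes below, therefore adds little to a call. Genes called higher made up 3.60% of all CPM in the vehicle libraries and 7.07% in the Dps libraries, and genes called lower 8.73% and 6.77%. Leaving out Dps replicate 3 cut the number of genes called lower to 426, and leaving out replicate 1 cut it to 448.

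**Figure D1:**
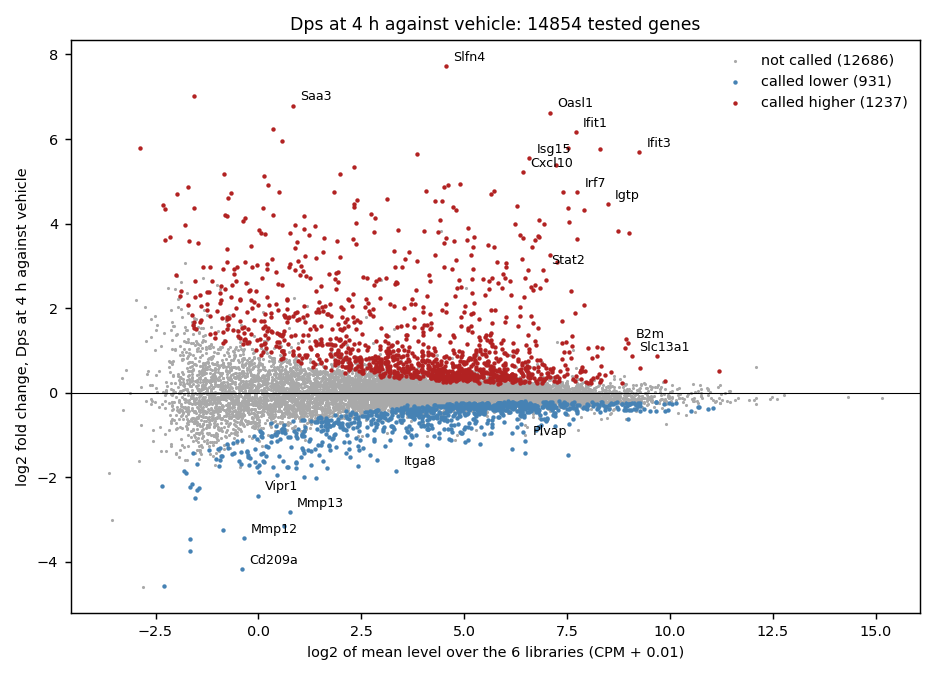
Log2 fold change of each tested gene (vertical axis, Dps at 4 h against vehicle) against the log2 of its mean level in the 6 libraries (horizontal axis, CPM), one point per gene, red for called higher, blue for called lower and grey for not called. Of the called genes, 62 lie above 4 on the vertical axis and 2 lie below −4.

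Interferon ligands had few or no counts. Ifna1, Ifna2 and Ifna4 were listed at 0 in all 14 libraries, but they are near-identical copies, and the abundant globin genes Hba-a1 and Hbb-bs, which also have close copies, were listed at 0 too, so these zeros cannot be read as absence. Ifnb1, the gene of interferon beta, had 0 counts in the vehicle libraries and 1 in the Dps libraries. Ifng, the gene of interferon gamma, had 1 count and 7 counts, too few to be tested. Neither chain of the type I receptor was called: Ifnar1 gave 0.09 ± 0.07 (adjusted p = 0.443) and Ifnar2 0.03 ± 0.10 (adjusted p = 0.887). Stat2, a transducer of type I signalling, was at 27.5, 32.2 and 26.1 CPM in the vehicle libraries and at 185, 249 and 209 CPM in the Dps libraries, a log2 fold change of 2.91 ± 0.13 (adjusted p = 8.33e-11). No Dps library overlapped a vehicle library. Stat3, which carries the signal of interleukin 6, rose from 63.8, 66.3 and 63.6 to 119, 132 and 125 CPM (0.96 ± 0.08, adjusted p = 3.04e-07). In all, 6 of the 16 tested genes of the interferon, receptor, JAK and STAT list rose and none fell, with a list median of 0.25.

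Among the interferon regulatory factors, 6 of 9 rose. Irf7, the factor that amplifies production of interferon alpha, had 12.5, 19.8 and 14.2 CPM in the vehicle libraries and 361, 482 and 399 CPM in the Dps libraries (4.75 ± 0.25, adjusted p = 5.05e-08). Irf1, a factor induced by interferon gamma, had 23.4, 29.98 and 17.4 and 164, 160.5 and 135 CPM (2.72 ± 0.22, adjusted p = 2.59e-06), and Irf9, the DNA-binding part of the type I complex, 19.2, 25.4 and 21.02 and 83.2, 85.6 and 86.1 CPM (1.96 ± 0.11, adjusted p = 2.05e-09). The lowest Dps library lay above the highest vehicle library in each case. Irf8, a factor of myeloid cells, rose by 1.75 ± 0.12 (adjusted p = 2.64e-08). Irf3, which is activated by phosphorylation and does not need new transcription, was at 68.6, 89.3 and 77.9 and 76.9, 83.6 and 79.9 CPM (0.03 ± 0.10, adjusted p = 0.89), with overlapping libraries.

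Antiviral effectors made up 6 of the 25 largest rises that met the level and overlap conditions. Of 31 tested members 27 rose and none fell, and the list median was 3.10 against −0.02 for all genes. Oasl1, of the oligoadenylate synthetase family that senses double-stranded RNA, was at 2.91, 3.55 and 2.10 CPM in the vehicle libraries and at 224, 331 and 252 CPM in the Dps libraries (6.62 ± 0.27, adjusted p = 1.87e-09). Ifit2, which binds RNA of viruses and blocks its translation, was at 11.5, 12.6 and 10.2 and 554, 794 and 513 CPM (5.78 ± 0.19, adjusted p = 2.43e-11). Mx1, a gene of the Mx family of GTPases, was at 1.70, 1.32 and 1.45 and 32.9, 60.5 and 37.8 CPM (4.88 ± 0.33, adjusted p = 3.66e-07). Dps replicate 2 was the highest library for all 3 genes. Eif2ak2, the kinase that stops translation on double-stranded RNA, rose by 2.72 ± 0.11 (adjusted p = 2.33e-11), and the membrane protein Ifitm3 by 2.54 ± 0.21 (adjusted p = 3.62e-06). Rsad2 (viperin) rose by 2.44 ± 0.23 (adjusted p = 1.09e-05) from a vehicle level of 31.9, 32.5 and 30.5 CPM. Ifit3 and Ifit3b share 51.2% and 45.00% of their 50-base words with other genes, so their separate values (5.69 ± 0.21 and 5.78 ± 0.17) are uncertain.

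The whole chain that attaches Isg15 to proteins rose, 6 of 6 genes, with a median of 3.62. Isg15, the ubiquitin-like modifier itself, had 3.73, 5.39 and 3.31 CPM in the vehicle libraries and 159, 237 and 167 CPM in the Dps libraries (5.55 ± 0.25, adjusted p = 4.76e-09). Its activating enzyme Uba7 rose by 2.31 ± 0.15 (adjusted p = 3.09e-08), its conjugating enzyme Ube2l6 by 3.50 ± 0.20 (adjusted p = 2.05e-08) and its ligase Herc6 by 3.73 ± 0.11 (adjusted p = 1.45e-12). Usp18, the protease that takes Isg15 off again and damps the type I receptor, rose from 2.58, 4.07 and 4.33 to 90.2, 119.6 and 95.7 CPM (4.76 ± 0.19, adjusted p = 1.88e-10).

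All 18 tested guanylate-binding proteins and immunity-related GTPases rose, with a median of 3.94. These GTPases attack the vacuoles in which intracellular bacteria and parasites live. Igtp was at 32.6, 41.1 and 20.8 CPM in the vehicle libraries and at 729, 791 and 542 CPM in the Dps libraries (4.46 ± 0.29, adjusted p = 8.18e-07). Iigp1 was at 24.5, 30.6 and 15.4 and 546, 541 and 297 CPM (4.32 ± 0.34, adjusted p = 8e-06), and Gbp2 at 21.5, 19.7 and 10.6 and 315, 486 and 255 CPM (4.38 ± 0.35, adjusted p = 1.03e-05). Vehicle replicate 3 was the lowest library for these 3 genes. Irgm1, which regulates the other members, rose by 3.78 ± 0.20 (adjusted p = 2.01e-08). The family is made of near-identical copies: Tgtp1 shares 89.4% of its 50-base words with other genes and Gbp6 52.2%, so their rises of 5.38 ± 0.28 and 4.75 ± 0.34 are uncertain as values for single genes.

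The Schlafen, PARP and TRIM families rose in 24 of 24 tested cases, with a median of 2.68. Slfn4, a Schlafen gene of myeloid cells, had the largest log2 fold change of all tested genes. Its level was 0.22, 0.229 and 0.215 CPM in the vehicle libraries and 44.8, 56.04 and 40.8 CPM in the Dps libraries (7.72 ± 0.23, adjusted p = 1.57e-12). Trim30d was at 2.47, 1.72 and 1.64 and 57.2, 65.9 and 50.7 CPM (4.93 ± 0.19, adjusted p = 1.26e-11), and Trim30a, a regulator of Toll-like receptor signalling, rose by 3.99 ± 0.14 (adjusted p = 6.81e-12). Parp14, a mono-ADP-ribosyl transferase, rose by 4.05 ± 0.14 (adjusted p = 2.91e-12), and Dtx3l, the ubiquitin ligase that pairs with Parp9, by 2.97 ± 0.13 (adjusted p = 1.19e-10). Trim21, a receptor for antibody inside the cell, rose by 1.92 ± 0.13 (adjusted p = 1.93e-08).

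Nucleic acid sensors rose in 14 of 17 cases (median 2.03). Dhx58, a regulator of the RIG-I-like receptors, went from 2.25, 2.69 and 2.88 to 43.7, 63.3 and 52.5 CPM (4.33 ± 0.17, adjusted p = 2.33e-11). The receptor Ifih1 (MDA5), which detects long double-stranded RNA, went from 21.4, 13.5 and 16.8 to 153, 171 and 136 CPM (3.16 ± 0.13, adjusted p = 3.38e-11). Zbp1, a sensor of Z-form nucleic acid, rose by 3.55 ± 0.37 (adjusted p = 4.96e-05). The adaptor Mavs, on which the RNA receptors converge, gave 0.09 ± 0.07 (adjusted p = 0.435), and the DNA sensor cGAS (Mb21d1) 0.90 ± 0.39 (adjusted p = 0.132), neither of them called.

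The flanks of Isg15, Ifit1 and Cxcl10, of the NF-kB inhibitor Nfkbia and of the clock gene Cry1 are printed because each holds the letters of a response element of its pathway. They come from RefSeq on GRCm38.p6 and cover the 250 bases before the annotated start, 5′ to 3′ on the strand of the gene, with the matched letters in capitals.
Isg15 (chr4:156200819-156201068, minus strand): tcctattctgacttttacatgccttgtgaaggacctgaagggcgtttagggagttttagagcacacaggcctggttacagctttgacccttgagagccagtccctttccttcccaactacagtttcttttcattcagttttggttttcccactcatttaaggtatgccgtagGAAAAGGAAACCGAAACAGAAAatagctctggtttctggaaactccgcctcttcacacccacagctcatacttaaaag
Ifit1 (chr19:34640639-34640888, plus strand): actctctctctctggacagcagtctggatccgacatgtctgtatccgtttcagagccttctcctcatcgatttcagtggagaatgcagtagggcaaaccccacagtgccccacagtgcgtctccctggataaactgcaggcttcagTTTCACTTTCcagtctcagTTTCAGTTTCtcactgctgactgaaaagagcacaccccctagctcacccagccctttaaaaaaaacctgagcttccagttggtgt
Cxcl10 (chr5:92348890-92349139, minus strand): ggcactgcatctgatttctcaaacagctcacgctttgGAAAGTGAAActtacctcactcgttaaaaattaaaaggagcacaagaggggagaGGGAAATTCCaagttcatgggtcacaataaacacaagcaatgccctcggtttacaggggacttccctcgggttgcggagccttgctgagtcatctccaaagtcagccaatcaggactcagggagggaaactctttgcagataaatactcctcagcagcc
Nfkbia (chr12:55492648-55492897, minus strand): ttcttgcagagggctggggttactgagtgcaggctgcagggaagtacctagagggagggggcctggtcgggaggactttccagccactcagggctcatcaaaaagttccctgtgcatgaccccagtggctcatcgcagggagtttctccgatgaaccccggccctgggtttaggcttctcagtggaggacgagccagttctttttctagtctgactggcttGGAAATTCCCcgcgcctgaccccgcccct
Cry1 (chr10:85185055-85185304, minus strand): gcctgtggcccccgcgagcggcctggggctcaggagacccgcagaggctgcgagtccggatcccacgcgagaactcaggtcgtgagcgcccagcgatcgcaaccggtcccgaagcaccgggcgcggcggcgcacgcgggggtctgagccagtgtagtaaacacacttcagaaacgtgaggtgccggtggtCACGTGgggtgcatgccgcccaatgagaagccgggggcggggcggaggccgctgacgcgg
In Isg15 the capitals mark 3 overlapping matches of GAAANNGAAA, the core of the interferon-stimulated response element, between 78 and 57 bases before the start. Ifit1, whose product binds foreign RNA and which rose by 6.16 ± 0.17, holds 2 matches on the opposite strand, at 104 to 95 and 85 to 76 bases before the start. Cxcl10 holds 1 match of the same core at 213 to 204 bases and 1 match of the kB site GGGANNTTCC at 159 to 150 bases. Nfkbia holds a kB match at 29 to 20 bases, and Cry1 the E-box CACGTG at 60 to 55 bases, the element that clock factors bind.

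Motif letters were searched on both strands of the 300-base windows of all 32851 promoters in the RefSeq table (250 bases before and 50 after the start), of which 11222 tested genes had at least 1 by symbol. GAAANNGAAA occurred in 3.44% of all windows and in 2.57% of the windows of tested genes that were not called. It occurred in 10.04% of the windows of genes called higher, in 26.6% of those of genes that rose by over 4-fold and in 2.48% of those of genes called lower. By list, it occurred in 11 of 13 windows of the guanylate-binding protein and immunity-related GTPase list, in 14 of 24 of the Schlafen, PARP and TRIM list, in 15 of 30 of the antiviral effectors, in 5 of 16 of the nucleic acid sensors and in 5 of 19 of the MHC class I list. Shares were 3 of 22 for chemokines and 1 of 5 for the Isg15 conjugation list. The kB site GGGANNTTCC occurred in 1.47% of all windows, in 2.83% of those of genes called higher, in 5.61% of those of genes that rose by over 4-fold and in 0.539% of those of genes called lower. It was in 4 of 22 chemokine windows and in 3 of 23 windows of the NF-kB list, and 0 of those 23 held GAAANNGAAA. The kB site was also in 2 of 13 windows of the GTPase list, in 3 of 30 of the antiviral effectors and in 1 of 19 of the MHC class I list. It was in 0 of 24 windows for Schlafen, PARP and TRIM, 0 of 16 for sensors, 0 of 5 for Isg15 conjugation and 0 of 26 for the clock list. The gamma-activated site TTCNNNGAA occurred in 8.30% of all windows, in 10.4% for genes called higher, in 17.3% for those that rose by over 4-fold and in 5.72% for genes called lower. It was in 7 of 13 windows of the GTPase list, in 9 of 30 of the antiviral effectors and in 4 of 23 of the NF-kB list. Other induced lists held it less often: 1 of 24 windows for Schlafen, PARP and TRIM, 1 of 16 for sensors and 2 of 19 for MHC class I. For chemokines the share was 2 of 22, for the Isg15 conjugation list 0 of 5 and for the clock list 2 of 26. The E-box CACGTG occurred in 7.15% of all windows and in 9.87% of those of tested genes that were not called. Its share was 7.64% for genes called higher, 4.21% for those that rose by over 4-fold and 7.23% for genes called lower. It was in 6 of 26 windows of the clock list. These shares describe letters in a window and were not tested.

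MHC class I presentation rose as a block: 20 of 20 tested genes were called higher (median 1.88). The peptide pump subunit Tap1 was at 18.7, 20.2 and 12.6 CPM in the vehicle libraries and at 174, 216 and 165 CPM in the Dps libraries (3.45 ± 0.18, adjusted p = 1.24e-08). Nlrc5, the transactivator of class I genes, was at 8.84, 12.2 and 6.57 and 98.01, 109 and 83.8 CPM (3.44 ± 0.18, adjusted p = 3.48e-09). The catalytic subunit of the immunoproteasome Psmb9 was at 6.86, 7.05 and 3.79 and 48.00, 57.9 and 44.7 CPM (3.15 ± 0.24, adjusted p = 1.02e-06), and Psmb8 rose by 3.06 ± 0.25 (adjusted p = 4.68e-06). The constitutive subunits that these replace gave −0.22 ± 0.10 for Psmb6 (adjusted p = 0.158, and 0.0476 with the length and GC offset) and −0.02 ± 0.10 for Psmb5 (adjusted p = 0.922). Of the 14 genes of the constitutive proteasome core, 1 was called higher and none lower, with a median of −0.10. Among all tested genes 8.33% were called higher and 6.27% lower. The light chain gene B2m rose from 487, 230.1 and 217 to 712, 742 and 653 CPM (1.18 ± 0.28, adjusted p = 0.0179), and vehicle replicate 1 lay between the other vehicle libraries and the Dps libraries. The B2m call was lost without Dps replicate 1, Dps replicate 2 or vehicle replicate 2 or in a fit of the 6 libraries alone (adjusted p from 0.0501 to 0.11).

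In MHC class II presentation 1 of 11 genes rose and 4 fell. Ciita, the class II transactivator, rose, at 6.81, 4.36 and 4.01 CPM in the vehicle libraries and 35.5, 31.8 and 25.1 CPM in the Dps libraries (2.64 ± 0.18, adjusted p = 2.64e-08). Of its targets, Cd74 and H2-Ab1 were not called: the invariant chain gene Cd74 was at 444, 201 and 185 and 207, 204 and 143 CPM (−0.58 ± 0.32, adjusted p = 0.264), and the chain gene H2-Ab1 gave −0.42 ± 0.35 (adjusted p = 0.466). Vehicle replicate 1 was the highest of the 6 libraries for both genes. H2-Ob, a chain of the class II regulator H2-O, fell from 1.81, 1.26 and 1.48 to 0.401, 0.604 and 0.271 CPM (−1.74 ± 0.31, adjusted p = 0.00109). The other genes of this list called lower were the chain genes H2-Aa, H2-Eb1 and H2-Oa. The number called lower in the list was 2 without Dps replicate 2 or without Dps replicate 3.

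Chemokines rose in 18 of 27 tested cases and fell in 2 (median 2.01). Cxcl10, a ligand of Cxcr3 on activated T cells, was at 5.49, 5.56 and 3.20 CPM in the vehicle libraries and at 156, 219.9 and 131 CPM in the Dps libraries (5.22 ± 0.31, adjusted p = 3.66e-07). Cxcl9, a ligand of the same receptor, was at 5.65, 3.21 and 2.77 and 76.6, 139 and 75.4 CPM (4.70 ± 0.42, adjusted p = 2.69e-05), and Ccl5, an attractant of T cells and monocytes, at 2.25, 0.745 and 0.807 and 30.1, 37.8 and 29.1 CPM (4.77 ± 0.41, adjusted p = 9.54e-06). The groups did not overlap for any of the 3. Ccl7, a monocyte attractant, rested on 10 counts in the vehicle libraries and 170 in the Dps libraries, a ratio of 12.1 (95% counting interval 6.43 to 25.7). Here and below, a counting interval pools the libraries of each group and leaves out the spread between them. The neutrophil attractant Cxcl1 rose from 0.604, 0.745 and 0.754 to 2.998, 2.25 and 2.01 CPM (1.78 ± 0.30, adjusted p = 0.000638). Cxcl2, of the same kind, had 1 count in the vehicle libraries and 51 in the Dps libraries, a ratio of 36.3 (6.24 to 1463). Cx3cl1, the membrane-bound ligand of Cx3cr1, rose by 0.52 ± 0.09 (adjusted p = 0.000468). Cxcl14 fell from 20.4, 17.7 and 25.9 to 10.9, 12.7 and 14.8 CPM (−0.76 ± 0.16, adjusted p = 0.0035). Of the receptors, the scavenging receptor Ackr3 rose by 0.96 ± 0.20 (adjusted p = 0.00671) and Ccr7, which guides dendritic cells to lymph nodes, by 2.40 ± 0.43 (adjusted p = 0.00106).

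Cytokines themselves were at low counts. Il6 had 0 counts in the 3 vehicle libraries and 11, 16 and 2 in the Dps libraries, at least 6.89-fold higher when 3 counts over the vehicle group are taken as the limit. Tnf was at 0.22, 0.287 and 0.108 CPM in the vehicle libraries and at 1.23, 1.35 and 0.868 CPM in the Dps libraries (2.64 ± 0.42, adjusted p = 0.000349). Il1b was at 0.549, 0.459 and 0.915 and 2.17, 2.90 and 2.22 CPM (1.83 ± 0.29, adjusted p = 0.000375). Their antagonists rose as well: Il1rn, which blocks the interleukin 1 receptor, went from 0.11, 0.344 and 0.215 to 3.40, 5.05 and 3.74 CPM (4.18 ± 0.37, adjusted p = 4.49e-07), and Il18bp, which binds interleukin 18, rose by 2.11 ± 0.21 (adjusted p = 3.58e-06). Il34, a ligand of the macrophage receptor Csf1r, rose by 0.96 ± 0.20 (adjusted p = 0.00493), and the death ligand Tnfsf10 by 1.71 ± 0.16 (adjusted p = 3.61e-06). Il15, a growth factor of natural killer cells, went the other way with −0.40 ± 0.10 (adjusted p = 0.0137), a call that was lost without Dps replicate 1 (adjusted p = 0.0743). Of 26 tested cytokine and receptor genes, 17 rose and 2 fell.

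Of 22 tested NF-kB subunits, inhibitors and kinases 15 rose and none fell, with a median of 0.65. Relb, the subunit of the alternative pathway, was at 4.78, 5.22 and 4.20 CPM in the vehicle libraries and at 21.3, 25.1 and 18.9 CPM in the Dps libraries (2.22 ± 0.18, adjusted p = 2.13e-07), and Nfkb2, its partner, at 15.9, 16.2 and 14.02 and 45.9, 46.6 and 43.9 CPM (1.57 ± 0.11, adjusted p = 2.17e-08). Feedback inhibitors were called in part. Tnfaip3 (A20), which removes ubiquitin from the signalling complex, rose by 1.10 ± 0.15 (adjusted p = 8.55e-05), Nfkbiz by 0.65 ± 0.10 (adjusted p = 0.000362), and Nfkbia, the classical early target, gave 0.35 ± 0.14 (adjusted p = 0.104) with 35.7, 28.2 and 33.99 against 43.5, 36.5 and 45.6 CPM.

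Among pattern-recognition genes 7 of 19 rose. Tlr2, a receptor for bacterial lipoprotein, went from 2.25, 1.66 and 2.50 to 9.54, 12.6 and 8.24 CPM (2.22 ± 0.29, adjusted p = 7.18e-05), and Tlr3, the receptor for double-stranded RNA, from 15.8, 12.1 and 12.8 to 46.8, 58.6 and 45.9 CPM (1.90 ± 0.13, adjusted p = 1.44e-08). Components of endotoxin recognition were not called: Tlr4 gave 0.69 ± 0.24 (adjusted p = 0.0673), Cd14 0.59 ± 0.19 (adjusted p = 0.0506), Lbp 0.54 ± 0.18 (adjusted p = 0.0605) and Ly96 0.26 ± 0.18 (adjusted p = 0.353). Alternatives called 3 of these genes higher: Cd14 under 5 (adjusted p from 0.00884 to 0.0414), Tlr4 under 2 (0.0421 and 0.0423) and Lbp under 2 (0.0484 and 0.0499). The shared adaptor Myd88 rose by 0.998 ± 0.11 (adjusted p = 5.87e-06). Of the SOCS inhibitors of JAK signalling, Socs1 rose from 0.439, 0.459 and 0.565 to 2.64, 4.20 and 3.74 CPM (2.80 ± 0.34, adjusted p = 1.87e-05) and Socs3 from 2.31, 2.64 and 2.23 to 9.40, 10.99 and 8.57 CPM (2.03 ± 0.26, adjusted p = 3.69e-05), whereas Cish, a target of STAT5, gave −0.88 ± 0.47 (adjusted p = 0.247).

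**Figure D2:**
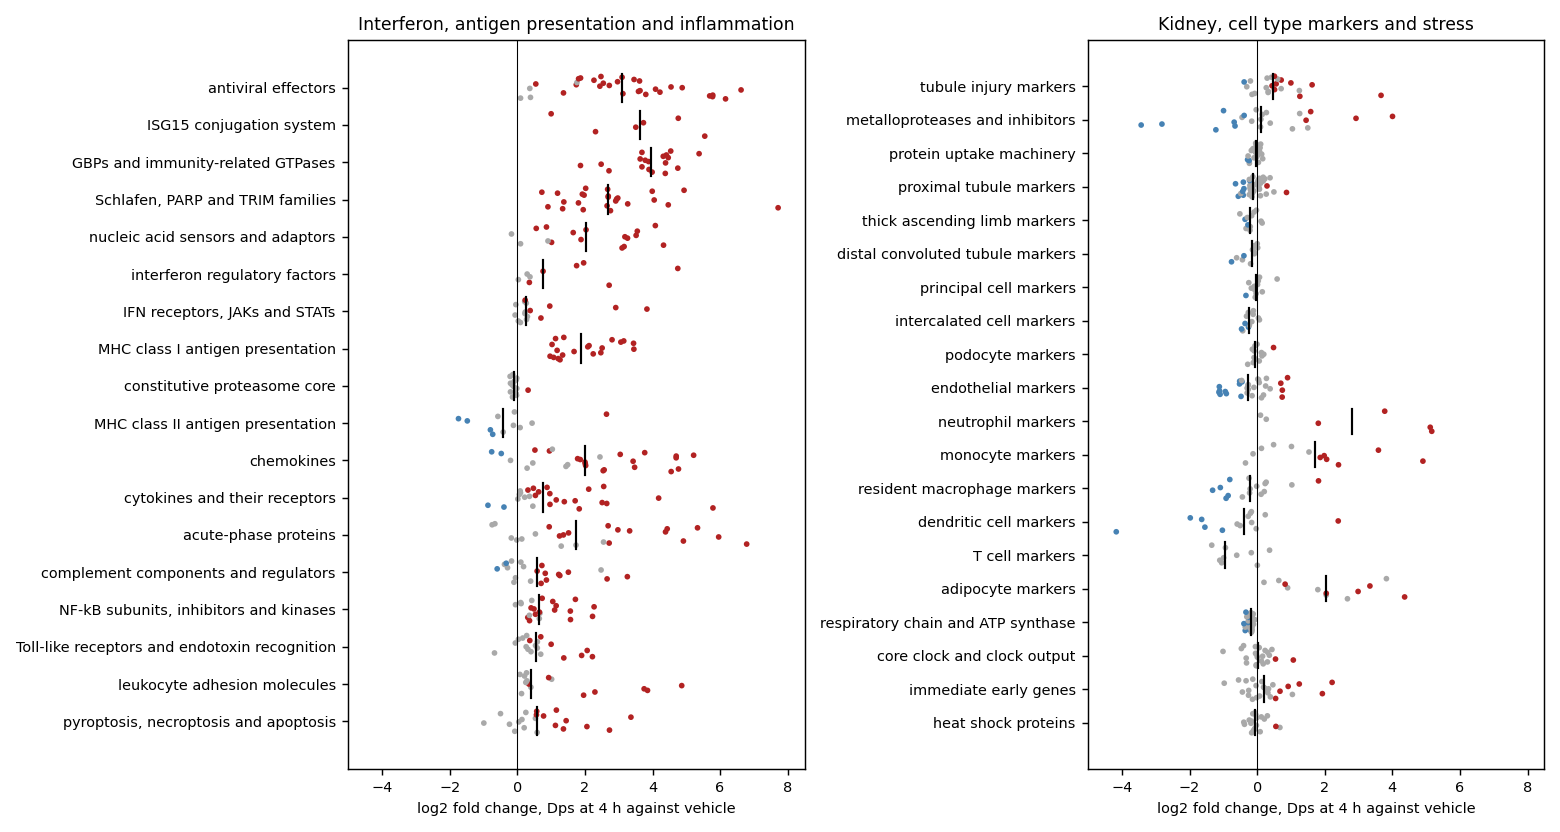
Log2 fold change (horizontal axis, Dps at 4 h against vehicle) of each tested member of the gene lists shown, one point per gene, red for called higher, blue for called lower, grey for not called, with the list median as a black bar. The antiviral, ISG15, GTPase, Schlafen and MHC class I lists lie almost wholly to the right of 0, and the medians of the protein uptake and proximal tubule lists are −0.03 and −0.13.

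Acute-phase proteins, the plasma proteins that liver and other tissues release in inflammation, rose in 14 of 23 tested cases and fell in none (median 1.73). Saa3, the serum amyloid A made outside the liver, had 2 counts in the vehicle libraries and 383 in the Dps libraries, a ratio of 136.5 (95% counting interval 37.5 to 1131). Itih4 had 3 and 287 counts, a ratio of 68.2 (23.1 to 332.5). Both ratios cover counting error only. Serpina3n, a protease inhibitor, was at 0.439, 0.344 and 0.0807 CPM in the vehicle libraries and at 6.56, 16.96 and 5.75 CPM in the Dps libraries (5.33 ± 0.60, adjusted p = 4.35e-05), with Dps replicate 2 far above the others. Haptoglobin (Hp), which binds free hemoglobin, was at 0.384, 3.78 and 0.969 and 37.7, 62.6 and 40.7 CPM (4.91 ± 0.69, adjusted p = 0.000949). The copper carrier Cp rose from 43.7, 31.9 and 33.3 to 86.8, 91.8 and 79.2 CPM (1.25 ± 0.19, adjusted p = 0.000732). Saa1 and Saa2, the liver forms, gave 1.30 ± 0.90 (adjusted p = 0.366) and 1.73 ± 1.30 (adjusted p = 0.402) and were not called.

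Markers of adipocytes were called higher in part. The 12 adipocyte markers summed to 148, 240.5 and 124 CPM in the vehicle libraries and to 366, 410.4 and 325 CPM in the Dps libraries, and 5 of 12 were called higher. The hormone gene Adipoq gave 0.0549, 5.90 and 1.02 and 11.5, 18.6 and 10.6 CPM (2.67 ± 0.87, adjusted p = 0.0692), and Fabp4, a fatty acid carrier of adipocytes and capillaries, 48.4, 60.4 and 37.8 and 90.1, 98.5 and 83.3 CPM (0.90 ± 0.32, adjusted p = 0.0845). Vehicle replicate 2 was the highest and replicate 1 the lowest of the vehicle libraries for Adipoq, as for Hp and the complement gene C3. For the acute-phase genes Serpina3n and Cp and the complement gene C4b vehicle replicate 1 was the highest of them. An order of 3 libraries is a description and was not tested. Adipoq was called higher without vehicle replicate 2 (adjusted p = 0.0122) and with limma voom (0.0443), and Fabp4 with DESeq2 (0.0412) and in a fit of the 6 libraries alone (0.00574). The satiety hormone leptin (Lep) had 0, 2 and 0 counts in the vehicle libraries and 17, 55 and 2 in the Dps libraries, a ratio of 26.4 (95% counting interval 7.045 to 221.7), and its call was lost without Dps replicate 2, vehicle replicate 1 or vehicle replicate 3 or with a term for the deeper libraries (adjusted p from 0.0511 to 0.0958). The count of adipocyte markers called higher was between 2 and 8 over the alternatives. The part of fat attached to the kidney in the acute-phase and complement values was not tested.

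Of 21 complement genes 10 rose and 2 fell. C3, the central component, was at 16.1, 22.6 and 18.1 CPM in the vehicle libraries and at 123, 152 and 80.8 CPM in the Dps libraries (2.65 ± 0.31, adjusted p = 0.000174). C4b, of the classical pathway, was at 10.05, 6.02 and 5.03 and 69.9, 75.9 and 49.7 CPM (3.25 ± 0.30, adjusted p = 1.43e-05), though 35.2% of its 50-base words occur in a copy. Cfb, of the alternative pathway, rose by 0.58 ± 0.11 (adjusted p = 0.00181) and C2 by 0.86 ± 0.12 (adjusted p = 0.000139), and both share most of their sequence with an annotated readthrough transcript of the pair. The number of complement genes called higher was 5 or 6 with a term for the deeper libraries, without Dps replicate 2 or without vehicle replicate 3.

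Of the leukocyte adhesion molecules 7 of 15 rose and none fell. E-selectin (Sele), which slows rolling leukocytes, had 9 counts in the vehicle libraries and 195 in the Dps libraries, a ratio of 15.4 (7.97 to 34.3). P-selectin (Selp) was at 0.0549, 0.229 and 0.161 CPM in the vehicle libraries and at 2.27, 1.98 and 2.01 CPM in the Dps libraries (3.75 ± 0.47, adjusted p = 2.95e-05). Vcam1, which holds monocytes and lymphocytes, was at 12.4, 6.59 and 9.10 and 40.2, 57.3 and 39.97 CPM (2.29 ± 0.26, adjusted p = 6.56e-05), and Icam1, which binds leukocyte integrins, at 21.5, 18.4 and 21.7 and 76.05, 88.5 and 75.7 CPM (1.96 ± 0.16, adjusted p = 3.42e-07). All Dps libraries were above all vehicle libraries for these genes.

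Of 30 endothelial markers 10 fell and 4 rose. Plvap, which forms the diaphragms of fenestrated capillaries, was at 129.6, 116 and 123 CPM in the vehicle libraries and at 42.1, 65.2 and 61.1 CPM in the Dps libraries (−1.13 ± 0.16, adjusted p = 0.000187). Ehd3, a membrane-trafficking protein of glomerular endothelium, was at 37.1, 29.01 and 38.8 and 12.7, 19.4 and 16.5 CPM (−1.11 ± 0.19, adjusted p = 0.00106). Tek, the receptor for angiopoietins, gave −1.10 ± 0.15 (adjusted p = 0.000125), and Ptprb, the phosphatase that restrains it, gave −1.12 ± 0.11 (adjusted p = 2.43e-06). The endothelial genes that rose were the nitric oxide synthase Nos3 (0.74 ± 0.16, adjusted p = 0.00555), the junction protein Cdh5 (0.74 ± 0.13, adjusted p = 0.00109), Robo4 (0.70 ± 0.14, adjusted p = 0.00264) and Angpt2 (0.90 ± 0.23, adjusted p = 0.0193). The Angpt2 call was lost without Dps replicate 2, vehicle replicate 1 or vehicle replicate 3 or with a term for the deeper libraries (adjusted p from 0.0505 to 0.0711). The number of endothelial markers called lower was 6 without Dps replicate 1. Over the 30 markers the summed level was 894, 820.4 and 935 CPM in the vehicle libraries and 593, 813 and 747 CPM in the Dps libraries, with Dps replicate 1 lowest.

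The 6 tested neutrophil markers summed to 2.53, 0.917 and 1.86 CPM in the vehicle libraries and to 9.89, 10.05 and 6.07 CPM in the Dps libraries, and 4 of them rose. S100a8, a calgranulin subunit that neutrophils hold in bulk, had 2 counts in the vehicle libraries and 125 in the Dps libraries, a ratio of 44.5 (12.1 to 371.8). The Dps counts were 52, 64 and 9 in replicates 1, 2 and 3. Csf3r, the receptor for granulocyte colony-stimulating factor, was at 1.04, 0.401 and 0.915 and 3.38, 2.80 and 2.22 CPM (1.81 ± 0.34, adjusted p = 0.00155). Other neutrophil genes were too low for the test, with 1 count against 18 for Cxcr2, 2 against 18 for Ngp and 3 against 20 for Retnlg. Of the 12 monocyte markers 6 rose and none fell, and their sum went from 99.9, 67.5 and 66.3 to 131, 165 and 133 CPM. Ly6c2, the surface protein of inflammatory monocytes, was at 1.48, 0.803 and 0.404 and 3.71, 4.93 and 4.50 CPM (2.41 ± 0.39, adjusted p = 0.000513), and Plac8 at 15.3, 13.1 and 9.69 and 43.5, 62.9 and 49.2 CPM (2.05 ± 0.22, adjusted p = 2.32e-05). Ccr2, the chemokine receptor that defines these monocytes, was not called (−0.35 ± 0.24, adjusted p = 0.365). Whether leukocytes or resident cells carried the rises of the immune genes above was not tested.

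Among 16 resident macrophage markers 1 rose and 5 fell: C1qa, a chain of the complement starter C1q, was at 19.98, 17.03 and 12.3 CPM in the vehicle libraries and at 9.47, 9.37 and 6.45 CPM in the Dps libraries (−0.92 ± 0.16, adjusted p = 0.00101), the chemokine receptor Cx3cr1 at 5.60, 3.96 and 4.57 and 2.60, 2.03 and 1.90 CPM (−1.09 ± 0.23, adjusted p = 0.00334), and the mannose receptor Mrc1 gave −1.32 ± 0.31 (adjusted p = 0.00773). The lineage receptor Csf1r and the surface marker Adgre1 (F4/80) gave −0.23 ± 0.11 (adjusted p = 0.177) and 0.11 ± 0.28 (adjusted p = 0.826). Fcgr1, the high-affinity receptor for antibody, was the tested macrophage marker that rose (1.81 ± 0.20, adjusted p = 5.13e-06). Members too low for the test had 3 counts in vehicle against 35 in Dps for Timd4, 9 against 0 for Vsig4 and 19 against 9 for Trem2. With no count filter 2 markers of this list were called higher. Of 14 dendritic cell markers 5 fell and 1, Ccr7, rose. Cd209a (DC-SIGN), a lectin of monocyte-derived and conventional dendritic cells, had the largest fall among the named genes, from 1.43, 0.803 and 2.07 to 0.0708, 0.0966 and 0.0542 CPM (−4.17 ± 0.58, adjusted p = 7.5e-05), resting on 117 and 8 counts. The lectin Mgl2 went from 3.46, 3.38 and 3.47 to 0.968, 0.942 and 0.597 CPM (−1.98 ± 0.24, adjusted p = 1.67e-05). Zbtb46, the transcription factor of the lineage, gave −0.03 ± 0.23 (adjusted p = 0.949). The number of dendritic cell markers called lower was 2 without Dps replicate 2 or vehicle replicate 3, and 3 without Dps replicate 3 or vehicle replicate 1. None of the 9 tested T cell markers or the 4 B cell markers was called, and the T cell sum was 11.2, 6.31 and 5.68 CPM in the vehicle libraries and 5.38, 5.51 and 5.42 CPM in the Dps libraries, with vehicle replicate 1 highest.

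**Figure D3:**
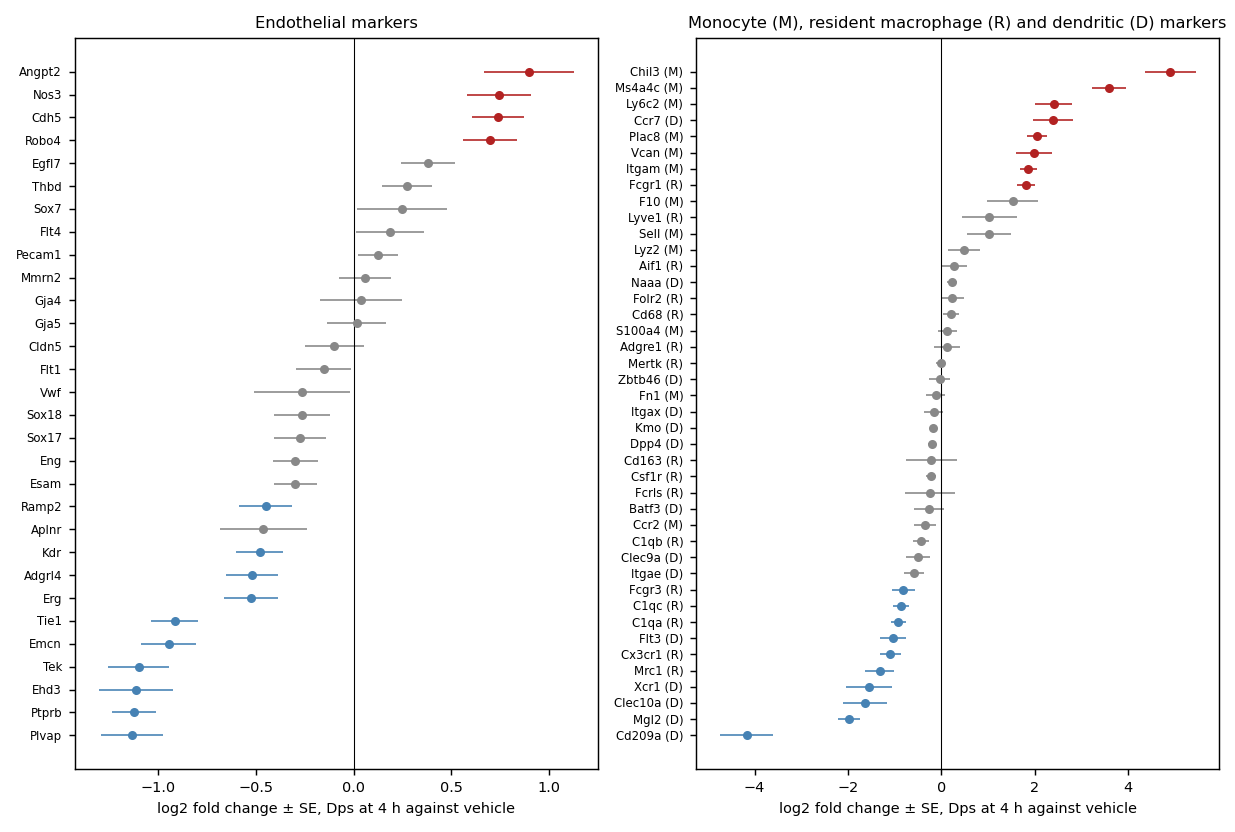
Log2 fold change (horizontal axis, Dps at 4 h against vehicle) of each tested endothelial marker (left) and each tested monocyte, resident macrophage and dendritic cell marker (right), with bars for the SE, red for called higher, blue for called lower and grey for not called. Of the endothelial markers 10 are called lower and 4 higher, and Cd209a lies farthest to the left in the right panel.

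Of 20 cell death genes 10 rose and none fell. Mlkl, the pore-forming protein of necroptosis, went from 2.03, 1.61 and 1.61 to 15.5, 23.02 and 14.7 CPM (3.36 ± 0.23, adjusted p = 2.4e-08). Casp4, the caspase that detects lipopolysaccharide inside the cell, went from 2.14, 1.72 and 1.18 to 9.11, 12.4 and 10.6 CPM (2.73 ± 0.27, adjusted p = 2.89e-06), and its substrate Gsdmd from 5.82, 6.19 and 5.79 to 11.7, 14.6 and 12.4 CPM (1.13 ± 0.15, adjusted p = 6.56e-05). The kinase Ripk3 (0.53 ± 0.27, adjusted p = 0.205) and the inflammasome gene Nlrp3 (−0.99 ± 0.41, adjusted p = 0.113) were not called.

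Tubule injury markers rose in 9 of 22 cases and fell in 1 (median 0.47). Lcn2 (NGAL), which binds bacterial siderophores and appears in urine after injury, was at 3.84, 4.47 and 2.40 CPM in the vehicle libraries and at 27.9, 51.98 and 50.2 CPM in the Dps libraries (3.66 ± 0.58, adjusted p = 0.00195). Havcr1 (kidney injury molecule 1) was at 1.26, 2.29 and 1.56 and 3.80, 4.81 and 3.42 CPM (1.26 ± 0.35, adjusted p = 0.0248), and its call was lost without Dps replicate 1, Dps replicate 2, vehicle replicate 1 or vehicle replicate 3 or with a term for the deeper libraries (adjusted p from 0.0503 to 0.0934). The stress cytokine Gdf15 rose by 0.996 ± 0.18 (adjusted p = 0.000944). Some markers of a regenerating or dedifferentiated tubule were not called: Sox9 gave 0.71 ± 0.31 (adjusted p = 0.135), Krt20 1.25 ± 0.53 (adjusted p = 0.124), Spp1 0.27 ± 0.11 (adjusted p = 0.131) and Clu −0.31 ± 0.12 (adjusted p = 0.0851). Spp1 was called higher with the length and GC offset (adjusted p = 0.0499) and Clu lower without vehicle replicate 3 (adjusted p = 0.0121).

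Matrix proteases split. Timp1, an inhibitor of matrix metalloproteases, rose from 0.714, 0.917 and 0.35 to 8.19, 12.2 and 8.41 CPM (4.004 ± 0.32, adjusted p = 2.24e-07), and the aggrecanase Adamts4 by 1.58 ± 0.34 (adjusted p = 0.00405). Mmp13, a collagenase, went from 2.47, 3.10 and 3.23 to 0.26, 0.459 and 0.597 CPM (−2.82 ± 0.39, adjusted p = 7e-05), and Mmp12, the elastase of macrophages, from 1.65, 0.516 and 2.13 to 0.212, 0.121 and 0 CPM (−3.44 ± 0.63, adjusted p = 0.0014). The list held 4 rises and 7 falls among 22 tested genes, and the falls were 4 without Dps replicate 1 or without vehicle replicate 3.

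The protein uptake machinery of the proximal tubule, the segment that the series title names, held 23 genes, of which none rose and 2 fell, with a median of −0.03. Of all tested genes 6.27% were called lower, and the number called lower in this list was 0 or 1 under many alternatives. Megalin (Lrp2) was at 2439, 2474 and 2739 CPM in the vehicle libraries and at 2346, 2062 and 2106 CPM in the Dps libraries (−0.23 ± 0.08, adjusted p = 0.0601), and it was called lower with DESeq2, limma voom, the length and GC offset or the term for the deeper libraries (adjusted p from 0.0112 to 0.0493). Cubilin (Cubn) was at 504, 462 and 535 and 571, 493 and 473 CPM (0.04 ± 0.08, adjusted p = 0.82), and its partner Amn gave −0.24 ± 0.11 (adjusted p = 0.167, and 0.0359 without vehicle replicate 1). Dab2, the adaptor that carries megalin into coated pits, gave −0.24 ± 0.08 (adjusted p = 0.0409), a call that was lost without Dps replicate 1, Dps replicate 2, Dps replicate 3, vehicle replicate 1 or vehicle replicate 3 or with no count filter or in a fit of the 6 libraries alone (adjusted p from 0.069 to 0.157).

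Of 38 proximal tubule markers 2 rose and 7 fell (median −0.13), where 8.33% of all tested genes rose and 6.27% fell. The summed level of the list was 60059, 61623 and 59325 CPM in the vehicle libraries and 56122, 57589 and 52256 CPM in the Dps libraries. The sulfate transporter Slc13a1 rose from 392, 349.6 and 399 to 727, 675 and 678 CPM (0.87 ± 0.17, adjusted p = 0.00299). The amino acid exchanger Slc7a8 fell from 166, 143 and 153 to 93.7, 106 and 96.2 CPM (−0.64 ± 0.12, adjusted p = 0.00167), and the phosphate transporter Slc34a3 from 53.6, 69.4 and 62.9 to 38.3, 37.4 and 50.9 CPM (−0.56 ± 0.12, adjusted p = 0.00551). The glucose transporter Slc5a2 (SGLT2) gave −0.41 ± 0.08 (adjusted p = 0.00199) and the organic anion transporter Slc22a8 −0.39 ± 0.09 (adjusted p = 0.00579). For Slc5a2, Slc7a8 and Slc34a3 the highest Dps library was below the lowest vehicle library. The main phosphate transporter Slc34a1 was not called (−0.15 ± 0.09, adjusted p = 0.26).

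In the thick ascending limb 2 of 12 markers fell. In the distal convoluted tubule 2 of 11 fell, among them the magnesium channel Trpm6, from 32.99, 29.4 and 39.6 to 21.9, 17.4 and 21.3 CPM (−0.76 ± 0.13, adjusted p = 0.000594). In intercalated cells 3 of 12 fell, among them pendrin (Slc26a4), a chloride-bicarbonate exchanger, from 105, 102 and 116 to 76.8, 83.6 and 73.9 CPM (−0.46 ± 0.08, adjusted p = 0.00054). No marker of these 3 segments rose. Among all tested genes 6.27% were called lower and 8.33% higher. Of 13 podocyte markers 1 rose, a share near that of all tested genes. It was Clic5 (0.48 ± 0.08, adjusted p = 0.000699), while nephrin (Nphs1) gave −0.28 ± 0.13 (adjusted p = 0.145). Of 36 genes of the respiratory chain and ATP synthase 7 fell and none rose (median −0.19), but the number called lower was 0 or 1 in most of the fits that left out a library and 16 with the length and GC offset.

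Metallothionein Mt2, which binds zinc, was at 23.99, 24.1 and 33.9 CPM in the vehicle libraries and at 60.1, 89.3 and 63.8 CPM in the Dps libraries (1.37 ± 0.35, adjusted p = 0.0249), and Mt1 at 70.6, 76.5 and 65.4 and 70.2, 105 and 80.2 CPM (0.27 ± 0.25, adjusted p = 0.518). Mt2 was not called without Dps replicate 2, vehicle replicate 1 or vehicle replicate 2 or with a term for the deeper libraries (adjusted p from 0.054 to 0.0853), and a gene on the opposite strand overlaps most of its exons. Slc11a2 (DMT1), which carries iron and manganese, rose from 106, 107 and 115 to 158, 146 and 147 CPM (0.46 ± 0.10, adjusted p = 0.00369), and the manganese importers Slc39a8 (−0.04 ± 0.10, adjusted p = 0.827) and Slc39a14 (−0.09 ± 0.15, adjusted p = 0.737) were not called. Heme oxygenase Hmox1 went from 26.6, 57.2 and 45.2 to 75.1, 84.01 and 86.98 CPM (0.93 ± 0.23, adjusted p = 0.0204), a call that was lost without Dps replicate 2, Dps replicate 3 or vehicle replicate 3 or in a fit of the 6 libraries alone (adjusted p from 0.0536 to 0.0761). Of 25 antioxidant and NRF2 target genes 1 rose, the NRF2 inhibitor Keap1 (0.40 ± 0.07, adjusted p = 0.00125), and 3 fell. Among all tested genes 8.33% rose and 6.27% fell. Nqo1, a standard NRF2 target, gave −0.18 ± 0.10 (adjusted p = 0.218), and the mitochondrial superoxide dismutase Sod2 −0.13 ± 0.07 (adjusted p = 0.196).

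Of 22 clock genes 2 rose and none fell, a share near the 8.33% of all tested genes called higher, and the list median was 0.03. Cry1, a repressor of the clock, rose from 2.42, 3.67 and 2.66 to 7.27, 5.24 and 5.59 CPM (1.07 ± 0.24, adjusted p = 0.00592), and Cry2 by 0.54 ± 0.07 (adjusted p = 4.08e-05). Arntl (BMAL1) gave −0.03 ± 0.24 (adjusted p = 0.951), Per2 0.30 ± 0.24 (adjusted p = 0.446) and Dbp −0.03 ± 0.11 (adjusted p = 0.909). The hours at which kidneys were taken are not stated in the labels. Immediate early genes rose in 6 of 26 cases (3 without vehicle replicate 1), Atf3 from 0.769, 1.61 and 1.32 to 4.86, 5.70 and 3.42 CPM (1.93 ± 0.35, adjusted p = 0.00121), while Fos (−0.14 ± 0.45, adjusted p = 0.873) and Egr1 (−0.26 ± 0.47, adjusted p = 0.768) were not called. The cell cycle inhibitor Cdkn1a rose by 0.87 ± 0.19 (adjusted p = 0.00699), and the pseudokinase Trib3 by 1.90 ± 0.26 (adjusted p = 6.3e-05). The chaperone of the endoplasmic reticulum Hspa5 gave −0.14 ± 0.22 (adjusted p = 0.734), and 1 of 20 heat shock proteins was called. The transcription factor Cebpa rose from 33.2, 32.2 and 28.2 to 57.7, 54.95 and 64.5 CPM (0.92 ± 0.10, adjusted p = 5.1e-06), and the glucocorticoid target Tsc22d3 gave −0.43 ± 0.31 (adjusted p = 0.386). In cholesterol synthesis 0 of 26 rose and 1 fell, in fatty acid oxidation 2 of 30 rose and none fell, and in gluconeogenesis and insulin signalling 2 of 19 rose and 2 fell. Over all tested genes 8.33% rose and 6.27% fell.

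**Figure D4:**
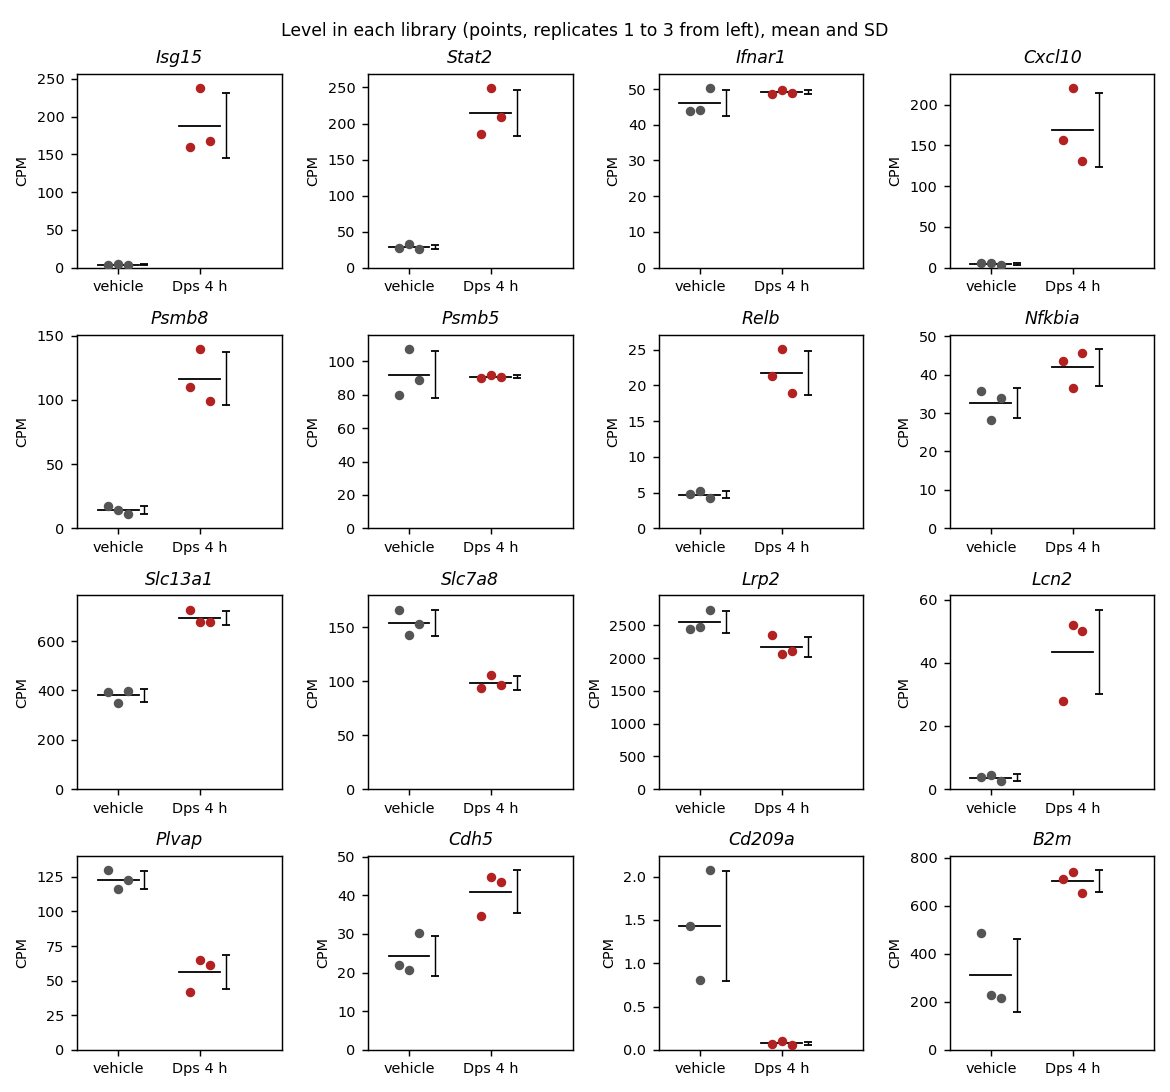
Level of 16 genes in each of the 6 libraries (vertical axis, CPM), one point per library with the group mean as a line and the SD as a bar beside it. Isg15, Stat2, Cxcl10, Psmb8 and Relb are higher in all 3 Dps libraries, Plvap, Slc7a8 and Cd209a lower in all 3, and the Psmb5 libraries overlap.

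Of the 2168 called genes, 938 of the higher and 860 of the lower ones belonged to none of the 57 lists. Among the 10 with the smallest p were Cmpk2, a nucleotide kinase of mitochondria, which went from 17.3, 15.5 and 14.8 to 177, 263 and 181 CPM (3.71 ± 0.15, adjusted p = 1.19e-10), and Rtp4, a chaperone of membrane receptors, from 3.73, 6.54 and 5.01 to 60.9, 68.8 and 56.1 CPM (3.61 ± 0.18, adjusted p = 1.18e-09). Lgals3bp, a secreted glycoprotein that binds galectin 3, rose by 2.41 ± 0.12 (adjusted p = 1.81e-10), Pml, the scaffold of nuclear bodies, by 1.79 ± 0.11 (adjusted p = 7.75e-09), and the RNA helicase Znfx1 by 1.89 ± 0.11 (adjusted p = 2.76e-09). Large falls outside the lists included Vipr1, a receptor for vasoactive intestinal peptide, from 1.59, 1.49 and 1.78 to 0.212, 0.217 and 0.597 CPM (−2.44 ± 0.40, adjusted p = 0.00043), and Ndufa4l2, a mitochondrial protein induced by low oxygen, from 3.29, 4.99 and 4.20 to 0.779, 1.14 and 1.25 CPM (−2.01 ± 0.23, adjusted p = 1.23e-05). Itga8, an integrin of mesangial and smooth muscle cells, went from 17.6, 12.7 and 17.3 to 3.19, 5.19 and 5.15 CPM (−1.84 ± 0.17, adjusted p = 8.43e-07), and Egflam, a matrix protein, gave −1.74 ± 0.23 (adjusted p = 5.56e-05). Every Dps library was below every vehicle library for these 4 genes, which the rule for the largest changes required.

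Set directly against the later time, 6626 genes (44.6%) differed between 24 h and 4 h after Dps, and the Dps 4 h libraries are shared with the comparison above. Across 14328 genes of known transcript length, the log2 difference between 24 h and 4 h fell with length (Spearman rho = −0.43), whereas rho was 0.17 for Dps at 4 h against vehicle. Genes share libraries and are not independent replicates, so rho is a description. With an offset for transcript length and GC content 5401 genes differed, and with a term for the deeper libraries 4225. Each gene named next except Mmp13 was called under each alternative run. Isg15 was lower at 24 h. It averaged 188 ± 42.8 CPM (mean ± SD) at 4 h and 9.04 ± 1.84 CPM at 24 h, with 4.14 ± 1.10 CPM in the vehicle group (−4.38 ± 0.23 for 24 h against 4 h, adjusted p = 2.2e-08). Irf7 was at 414 ± 62.1, 133 ± 37.6 and 15.5 ± 3.80 CPM (−1.64 ± 0.21, adjusted p = 0.000103), and Ccl5 at 32.3 ± 4.73, 7.43 ± 1.12 and 1.27 ± 0.852 CPM (−2.12 ± 0.33, adjusted p = 0.000376). These genes, induced by interferon or drawn into leukocyte recruitment, all fell between the 2 times. Plvap and Vipr1, lower than vehicle at 4 h, were higher at 24 h than at 4 h. Plvap averaged 56.1 ± 12.3, 159.9 ± 11.2 and 123 ± 6.59 CPM (1.51 ± 0.16, adjusted p = 1.01e-05) and Vipr1 0.342 ± 0.22, 2.21 ± 0.3 and 1.62 ± 0.145 CPM (2.87 ± 0.39, adjusted p = 4.46e-05). The collagenase gene Mmp13 was at 0.438 ± 0.169, 0.235 ± 0.12 and 2.93 ± 0.405 CPM (−0.81 ± 0.55, adjusted p = 0.247), a difference between the times that was not called.

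MnDps at the same dose and time differed from Dps in 6158 genes (41.5%). The log2 difference fell with transcript length across genes (Spearman rho = −0.63), and with the length and GC offset 3617 genes differed. With the term for the deeper libraries 3558 genes differed. Cxcl10 averaged 169 ± 45.8 CPM with Dps and 173 ± 48.4 CPM with MnDps, a log2 difference of 0.03 with a 95% interval from −0.50 to 0.55 (adjusted p = 0.939). No difference was called for this interferon-induced gene. The calgranulin S100a8 was higher with MnDps (1.60 ± 0.37, adjusted p = 0.00279) and the endothelial junction gene Cdh5 was lower (−0.82 ± 0.13, adjusted p = 0.000215), and both calls held under each alternative run. Isg15 averaged 188 ± 42.8 and 295 ± 55.5 CPM (0.65 ± 0.19, adjusted p = 0.0142), and the metallothioneins Mt2 (0.98 ± 0.33, adjusted p = 0.0379) and Mt1 (1.11 ± 0.25, adjusted p = 0.00451) were higher as well. With the length and GC offset none of these 3 was called: Isg15 gave 0.09 (adjusted p = 0.702), Mt2 0.38 (adjusted p = 0.395) and Mt1 0.59 (adjusted p = 0.0532). The Isg15 and Mt2 calls were also lost with the term for the deeper libraries and without Dps replicate 1, Dps replicate 3 or MnDps replicate 3 (adjusted p from 0.0630 to 0.1003 for Isg15 and from 0.0610 to 0.180 for Mt2), and that of Mt2 with no count filter (0.0665). Slfn4 was lower with MnDps, at 47.2 ± 7.91 and 31.2 ± 5.10 CPM (−0.60 ± 0.13, adjusted p = 0.00172), a call that was lost with the term for the deeper libraries (−0.40, adjusted p = 0.108). Cubilin (Cubn) averaged 513 ± 51.6 and 389 ± 23.03 CPM (−0.40 ± 0.08, adjusted p = 0.00131), and its difference changed sign with the length and GC offset (0.12, adjusted p = 0.225).

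**Figure D5:**
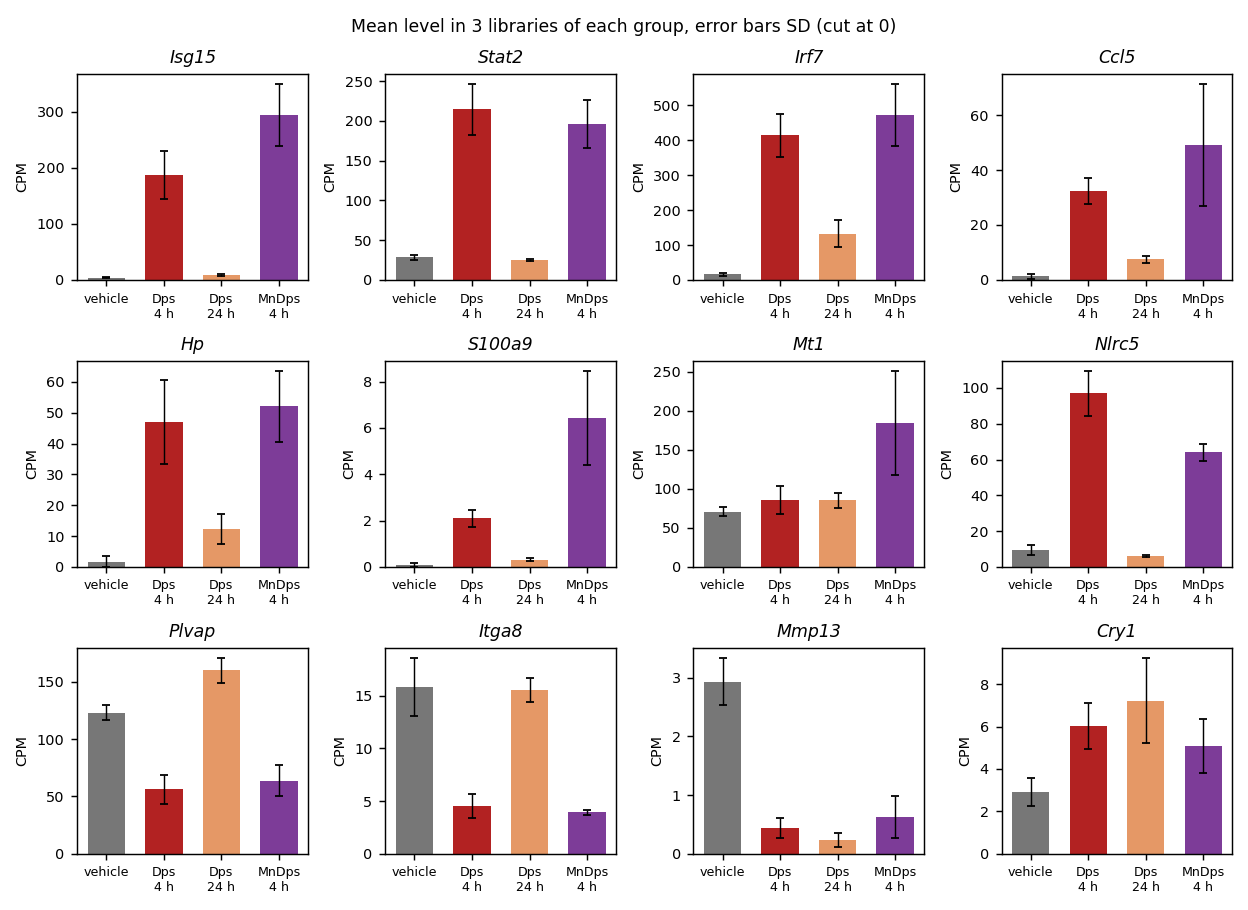
Mean level of 12 genes (bars, CPM, from 0) after vehicle, Dps (4 h and 24 h) and MnDps (4 h), with the SD over 3 libraries as error bars that stop at 0. Isg15 averages 188 ± 42.8 CPM at 4 h after Dps, 9.04 ± 1.84 CPM at 24 h and 4.14 ± 1.10 CPM after vehicle.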

How the data were processed

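Messenger RNA of whole mouse kidneys was sequenced in 14 libraries of 5 groups, of which the 3 of Dps at 4 h and the 3 of vehicle make the comparison reported. Per the labels' protocols, kidneys had been snap frozen, RNA was extracted on columns with removal of genomic DNA, and Illumina's stranded TruSeq mRNA kit gave paired 75-base reads. Per the submitters' processing notes, the authors used STAR, featureCounts and the mm10 build. Not given in the sources used here are versions, the annotation, the strand setting and the treatment of multi-mapping reads. The authors deposited raw read counts per gene symbol, one column per library. Libraries were grouped by their titles, which carry no replicate numbers, so replicates were numbered in order of deposit. Pairs of libraries of one group differed by more than counting noise (chi-square per degree of freedom from 10.5 to 22.0).

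Genes were filtered with edgeR's filterByExpr by group and counts scaled by TMM. The quasi-likelihood test of edgeR 4.0.16 (R 4.3.3) was run in one robust fit of 5 group means over the 14 libraries, with 9 residual degrees of freedom and Benjamini-Hochberg adjustment over all 14854 genes tested. The SE is the size of the log2 fold change divided by the square root of F. The biological coefficient of variation was 10.7%. Counting intervals are exact binomial at 95% (SciPy 1.17.1) on counts pooled over the libraries of each group, so they cover counting error only. The share of 50-base words that a gene shares with others was taken from the reference transcripts.

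The members, the 57 gene lists and the naming rule were chosen with earlier results of these data known. Named are the 25 largest rises and falls with at least 1 CPM and no overlap, key members of each list, up to 4 called members per list and direction, and the 10 called genes with the smallest p outside the lists. Genes of the 2 comparisons with other treated groups come from the same set. Alternatives were scaling by median of ratios, every gene with a count, a stricter filter (1 CPM in 3 libraries), DESeq2 1.42.0, limma 3.58.1 voom with quality weights, the 6 libraries alone, an offset for transcript length and GC content, a term for libraries over 30000000 counts, and leaving out each library. Those of the 2 comparisons with other treated groups were added after seeing the data. Some genes are not reported here.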

Additional observations from a re-analysis of the deposited data

Results flagged for a closer look

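Results are given here when a direct test found that Dps at 4 h differed from another treated group. Between 24 h and 4 h after Dps, 6626 genes differed by the quasi-likelihood test of edgeR after Benjamini-Hochberg adjustment. Of the genes named in the text that were called against vehicle, Slfn4, a Schlafen gene of myeloid cells, was lower at 24 h by the widest margin (−5.91 ± 0.20, adjusted p = 3.13e-12), before Oasl1 (−5.70 ± 0.25, adjusted p = 4.58e-09) and Ifit2 (−5.56 ± 0.19, adjusted p = 3.66e-11). The dendritic cell lectin gene Cd209a was higher at 24 h (3.73 ± 0.60, adjusted p = 0.000168), as were Vipr1 (2.87 ± 0.39, adjusted p = 4.46e-05) and Ndufa4l2 (2.60 ± 0.23, adjusted p = 5.23e-07). These 6 calls held under each alternative run.

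Between MnDps and Dps at 4 h, 6158 genes differed. The cytokine gene Tnf was lower with MnDps (−1.05 ± 0.35, adjusted p = 0.0229), as were Cdh5 (−0.82 ± 0.13, adjusted p = 0.000215) and the death ligand Tnfsf10 (−0.72 ± 0.16, adjusted p = 0.00216). S100a8 (1.60 ± 0.37, adjusted p = 0.00279), Mt2 (0.98 ± 0.33, adjusted p = 0.0379) and the serum amyloid gene Saa3 (0.93 ± 0.28, adjusted p = 0.0139) were higher. The calls of Cdh5, Tnfsf10 and S100a8 held under each alternative run, whereas those of Tnf, Mt2 and Saa3 were each lost under at least 1, with adjusted p up to 0.171, 0.395 and 0.115. In groups of 3 libraries no single library was tested as an outlier.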

How the results depend on the processing

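Of 139 named genes called for Dps at 4 h against vehicle, 131 kept their call and direction under all 14 alternatives, 8 lost it under at least 1, and none reversed. Of 49 named genes not called, 10 were called under at least 1 alternative, each named with its result. The number of genes lower in Dps was 931 as reported and 615 with a term for the deeper libraries. It was larger with the length and GC offset (1333), limma voom (1162) and DESeq2 (1133), which called 1488, 1330 and 1316 genes higher. Leaving out 1 library in turn gave from 426 (without Dps replicate 3) to 759 lower genes and from 932 (without Dps replicate 2) to 1100 higher ones, against 1237 as reported. Genes called higher made up 57.1% of calls as reported, 71.1% without Dps replicate 1 and 70.8% without Dps replicate 3. Genes that differed between 24 h and 4 h after Dps numbered 6626, from 5203 to 5918 with 1 library left out and 4225 with the depth term. Those that differed between MnDps and Dps at 4 h numbered 6158, from 4670 to 5948 with 1 library left out, 3617 with the length and GC offset and 3558 with the depth term. Cubn reversed in the latter comparison with the length and GC offset (0.12). The cause of these shifts was not tested, although a fit with fewer libraries also has less power. No paired analysis was possible because the titles carry no replicate numbers. Library totals from 17589774 counts limit what can be said of genes with few counts, and 9567 genes were not tested.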
